A study of Homo sapiens with 3 samples.

Results

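Transcripts of 10 genes of the Hippo pathway and its TEAD transcription factors were examined in DU145 cells, a human cell line of castration-resistant prostate cancer. The genes were TEAD1, TEAD2, TEAD3, TEAD4, YAP1, WWTR1, VGLL4, LATS1, LATS2 and AMOTL2, picked by name from the 58735 genes listed, and each had enough counts to be tested. TEAD1 drew attention to the group because its count stepped down over the 3 libraries, from the control through knockdown 1 to knockdown 2, as they are labelled. The TEAD1 values are therefore given as a description, and no test of TEAD1 in these libraries supports them.

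The study addressed what PD-L1, an immune checkpoint ligand encoded by CD274, does inside tumour cells. It comprised 3 poly(A) RNA-seq libraries. The culture methods describe stable lines made with the pLKO.1 lentiviral vector, either empty as a control or with an shRNA against PD-L1. These lines were selected with puromycin. For RNA-seq the methods name only DU145 and DU145 PD-L1sh1/2 cells, so the vector and selection of the control library are inferred. A single shRNA sequence is printed, and the labels say only knockdown 1 and knockdown 2. That these 2 libraries carry different shRNAs rests on the name sh1/2. No other genetic change or drug was named. Each label had 1 library, and nothing says that the cells came from separate clones or cultures. The series text named BCPAP, a thyroid cancer line, the labels and the methods gave different media, and RBM45 stood in the name of the control's column of counts.

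The control held 204 counts of CD274, the library labelled knockdown 1 held 213 and the library labelled knockdown 2 held 224. The ratios to the control were 1.05 (95% interval 0.861 to 1.28) and 1.03 (0.845 to 1.25), so the targeted transcript was not measurably lower and the libraries are named by their labels. The authors checked PD-L1 protein in their stable DU145 lines by western blot, and RNA counts do not measure protein. The 5 epithelial markers KRT8, KRT18, KRT19, EPCAM and CDH1 summed to 2175 to 2403 CPM (counts scaled to library size) in a library. Among markers of luminal prostate cells, KLK3, KLK2 and TMPRSS2 were at 0 in every library. Of 5 thyroid markers, 4 stayed under 30 counts, and FOXE1 had 738, 645 and 720 counts. Of 9 markers of blood, endothelial and stromal cells, 3 were at 0 and 8 stayed under 30 counts, with sums of 7.32 to 10.0 CPM; COL1A1 was the exception, with 101, 98 and 149 counts. Libraries held 14733088 to 15786457 counts, and the mitochondrial share was 6.30%, 5.68% and 5.17%.

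The Hippo pathway is a kinase cascade that restrains the transcriptional coactivators YAP1 and WWTR1 (also known as TAZ). MST kinases activate LATS1 and LATS2, which phosphorylate both coactivators and keep them out of the nucleus. When the cascade is off, YAP1 and WWTR1 enter the nucleus and bind the TEAD proteins, which read the DNA motif but need a partner to activate transcription. Genes switched on in this way include CCN1, CCN2 and ANKRD1, and also AMOTL2 and LATS2, whose products feed back on YAP1. Much of this control acts on protein phosphorylation and location, which RNA-seq does not measure.

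The sequence that ties these proteins to their target genes is the TEAD motif GGAATG, which reads CATTCC on the opposite strand. It was searched on both strands in the 250 bases before each annotated transcription start in the RefSeq promoter table (GRCh38.p14). Of 35116 windows, 11.9% held at least 1 match and 0.940% held at least 2. Of the 10 genes, 8 had windows there, 16 windows in all, and 2 of the windows held a match, 1 of YAP1 and 1 of AMOTL2. Among 22 known YAP/TAZ-TEAD target genes, 16 had 18 windows, of which 8 (44.4%) held a match. The CCN2 window is shown because it holds 3 matches, and the shorter stretches show the matches of 4 further genes whose values are described later. Capitals mark the motif, and each sequence runs 5′ to 3′ on the strand of its gene.
CCN2, chr6:131951374-131951622, minus strand: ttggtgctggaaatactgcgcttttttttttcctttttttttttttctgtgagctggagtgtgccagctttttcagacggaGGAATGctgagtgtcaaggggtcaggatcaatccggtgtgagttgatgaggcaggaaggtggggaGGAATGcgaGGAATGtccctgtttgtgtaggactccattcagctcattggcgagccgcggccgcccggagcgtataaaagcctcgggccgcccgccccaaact
AMOTL2, chr3:134374499-134374528, minus strand: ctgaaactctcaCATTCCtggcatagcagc
YAP1, chr11:102110273-102110302, plus strand: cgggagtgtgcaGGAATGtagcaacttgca
ANKRD1, first match, chr10:90921290-90921319, minus strand: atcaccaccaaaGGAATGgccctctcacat
ANKRD1, second match, chr10:90921198-90921227, minus strand: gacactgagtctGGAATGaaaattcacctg
AXL, chr19:41226531-41226560, plus strand: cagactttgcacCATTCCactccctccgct
The CCN2 matches lay 169, 104 and 95 bases before the start. Those of ANKRD1 lay 220 and 128 bases before it, and those of AMOTL2, YAP1 and AXL lay 69, 162 and 212 bases before one of their starts. The matches of AMOTL2 and YAP1 and the second of ANKRD1 fell inside an annotated exon. A match is a run of letters, and binding of a factor was not measured.

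TEAD1 was the most abundant of the TEAD genes in the control, and it was the only one of them with lower counts in both other libraries. The gene lies at chr11:12674591-12944483 on the plus strand (GRCh38), and its merged exons span 10279 bases. The control held 7609 TEAD1 counts, the library labelled knockdown 1 held 6488 and the library labelled knockdown 2 held 3820. Scaled by the trimmed mean of M values (TMM), these are 515.5, 441.5 and 241.7 CPM. The 3 values were ordered and well apart. The ratio to the control was 0.856 (95% counting interval 0.828 to 0.885) in the library labelled knockdown 1 and 0.469 (0.451 to 0.488) in the library labelled knockdown 2. The latter held 0.548 (0.526 to 0.570) of the level of the former, so the larger step lay between the libraries that share the knockdown label. These intervals treat reads as independent and cover counting error only, and each label had 1 library. PCR copies were not collapsed by molecular identifiers, so the intervals may be too narrow even for counting error. In bulk RNA, fewer cells with a transcript and less of it per cell cannot be told apart. On the log2 scale the differences to the control were −0.22 and −1.09, and −0.59 over both libraries.

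TEAD2, TEAD3 and TEAD4 encode factors with the same DNA-binding domain, and all 3 had higher values in both libraries labelled knockdown than in the control. TEAD2 (chr19:49340595-49362457) had 284 counts in the control, followed by 336 and 350 for knockdown 1 and 2 as labelled. Its ratios to the control were 1.19 (1.01 to 1.40) and 1.15 (0.981 to 1.35). TEAD3 (chr6:35473597-35497076) had 321, 377 and 403 counts. That gave ratios of 1.18 (1.01 to 1.37) and 1.17 (1.01 to 1.36). TEAD4 (chr12:2959330-3040673) had 399, 496 and 520 counts. Its ratios of 1.25 (1.09 to 1.43) and 1.22 (1.07 to 1.39) were the highest of the family. None of the 3 passed the test of both libraries against the control, with log2 differences of 0.23 (SE 0.18), 0.23 (SE 0.18) and 0.30 (SE 0.17). With the trends of counts with gene length and GC content removed the log2 differences were 0.03, 0.05 and 0.14. The ratio of the library labelled knockdown 2 to the control was then 0.968 for TEAD2, on the other side of the control, 1.00 for TEAD3 and 1.07 for TEAD4. Between the libraries labelled knockdown the ratios as measured were 0.969, 0.994 and 0.975, each with an interval that contained 1. TEAD3 and TEAD4 share 26 stretches of 31 bases, out of 3067 and 2402 in each gene, and TEAD1 shares none with any other listed gene. TEAD2 overlaps the antisense gene CD37 in 10.7% of its exonic bases, and CD37 had 70, 95 and 114 counts, in the same order as the raw TEAD2 counts. Scaled to library size, TEAD2 was at 19.24, 22.86 and 22.15 CPM, highest in the library labelled knockdown 1. The part of CD37 reads in the TEAD2 counts was not tested.

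Per gene length the family was dominated by TEAD1 in the control, and less so in the library labelled knockdown 2. In FPKM (counts per kilobase of exon and per unit of library depth), TEAD1 was at 49.9, 42.7 and 23.5 in the 3 libraries. TEAD4 was at 11.8, 14.8 and 14.5, TEAD3 at 7.10, 8.37 and 8.37, and TEAD2 at 6.42, 7.63 and 7.43. The order TEAD1, TEAD4, TEAD3, TEAD2 was the same in the 3 libraries. TEAD1 made up 66.3%, 58.1% and 43.7% of the summed FPKM of the family. The sum of the other 3 was 25.3, 30.8 and 30.3 FPKM, and that of all 4 was 75.2, 73.5 and 53.8 FPKM. The summed level was thus close in the first 2 libraries and lower in the third. The cofactor genes VGLL1, VGLL2 and VGLL3 were at 0 counts in the 3 libraries, which allows up to 0.190 to 0.204 CPM by counting error alone.

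**Figure D1:**
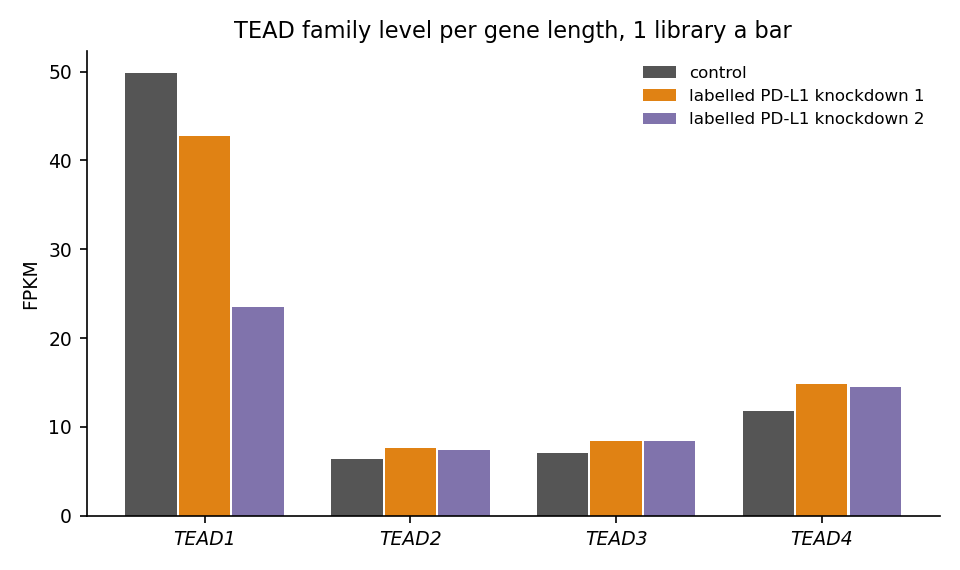
FPKM (vertical axis) of the TEAD genes in the control (grey) and in the libraries labelled PD-L1 knockdown 1 (orange) and 2 (purple), with 1 library a bar and no error bar. TEAD1 steps down from 49.9 to 42.7 and 23.5 FPKM, while the other TEAD genes stay at or under 14.8 FPKM and are lowest in the control.

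The coactivators of the TEAD proteins were abundant and differed little between libraries. YAP1 (chr11:102110461-102233423) had 3680, 3497 and 3519 counts. Its ratios to the control were 0.955 (0.911 to 1.00) and 0.893 (0.853 to 0.936), so both values lay below the control by at most 10.7%. WWTR1 (chr3:149517235-149736714) had 1803, 1650 and 1873 counts. Its ratios were 0.919 (0.859 to 0.983) and 0.970 (0.909 to 1.04). The log2 differences of YAP1 and WWTR1 over both libraries were −0.11 (SE 0.11) and −0.08 (SE 0.12), neither of which passed the test. With the length and GC trends removed, WWTR1 was at 0.09, on the other side of the control. YAP1 exceeded WWTR1 by 2.73, 2.83 and 2.51 times in FPKM. Summed, both coactivators were at 53.8, 50.8 and 49.5 FPKM, which is 0.715, 0.692 and 0.919 of the summed TEAD level. The last ratio was the highest, in the library where the TEAD sum in its denominator was lowest.

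VGLL4, a cofactor that competes with YAP1 for the TEAD proteins, was the least abundant of the 10 genes in the control, at 2.92 FPKM. It had 314 counts there, 321 in the library labelled knockdown 1 and 448 in the library labelled knockdown 2 (chr3:11556070-11771350). The first ratio to the control, 1.03 (0.876 to 1.20), had an interval that contained 1. The second was 1.33 (1.15 to 1.54). VGLL4 was also higher in the library labelled knockdown 2 than in the library labelled knockdown 1, by 1.30 times (1.12 to 1.50), and was the only one of the 10 genes with an interval above 1 there. Its log2 difference over both libraries was 0.24 (SE 0.18) and did not pass the test. VGLL4 shares 22.1% of its exonic bases with the antisense gene ATG7, and the use of strand in counting is not stated. ATG7 had 433, 381 and 415 counts, an order unlike that of VGLL4.

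LATS1 and LATS2, the kinases that phosphorylate YAP1 and WWTR1, had values below the control in both libraries. LATS1 (chr6:149658153-149718256) had 762, 649 and 661 counts. The ratios were 0.856 (0.769 to 0.951) and 0.810 (0.729 to 0.900). LATS2 (chr13:20973032-21061547) had 1191, 1166 and 1109 counts. Its first ratio, 0.983 (0.906 to 1.07), had an interval that contained 1, and its second was 0.870 (0.801 to 0.945). The log2 differences of LATS1 and LATS2 over both libraries were −0.26 (SE 0.15) and −0.11 (SE 0.13), and neither passed the test. With the length and GC trends removed they were −0.08 and −0.15. Per gene length LATS2 exceeded LATS1 by 2.42, 2.78 and 2.60 times.

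AMOTL2, a scaffold that binds YAP1 and is also one of its target genes, had the highest FPKM of the 10 genes, at 57.9, 66.0 and 61.1. Its counts were 5141, 5842 and 5780 (chr3:134355874-134375479). The ratios were 1.14 (1.10 to 1.19) and 1.05 (1.01 to 1.09), both above the control. The log2 difference of 0.13 (SE 0.11) did not pass the test. After the length and GC trends were removed, the ratio of the library labelled knockdown 2 to the control was 0.946, so the direction in that library turned with the processing.

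**Figure D2:**
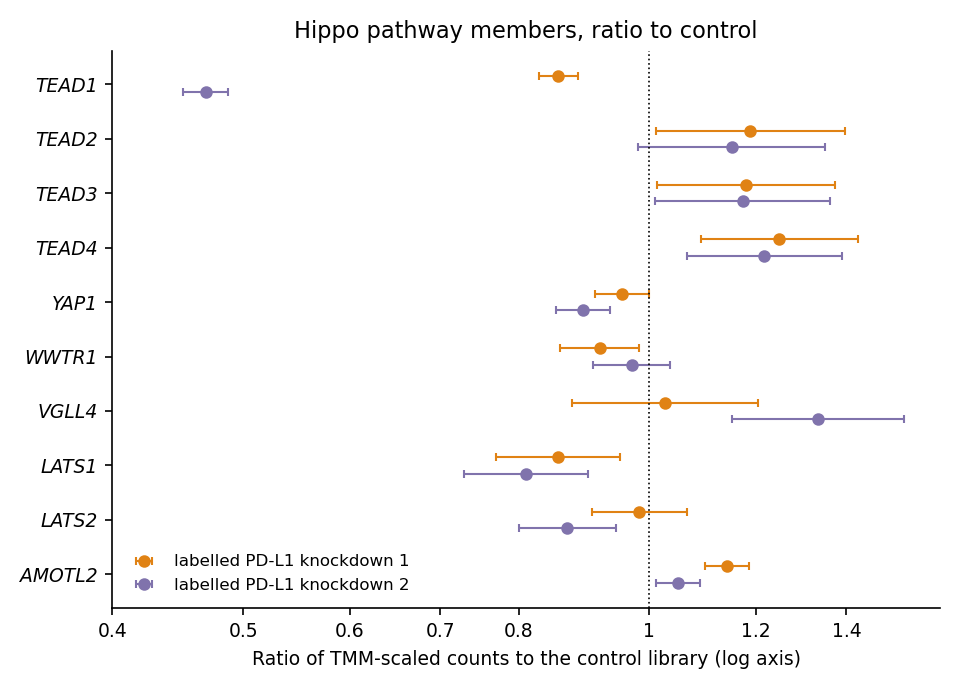
Ratio of TMM-scaled counts to the control (horizontal log axis) for the 10 genes, with knockdown 1 as labelled in orange and knockdown 2 in purple. Points are single libraries and bars are exact 95% intervals for counts; TEAD1 at 0.469 lies far to the left of every other point, the next lowest being LATS1 at 0.810.

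Per gene length, the order of the 10 genes in the control was AMOTL2, TEAD1 and YAP1, then WWTR1 (14.4 FPKM), LATS2 (14.4) and TEAD4 (11.8), then TEAD3, TEAD2, LATS1 (5.94) and VGLL4. WWTR1, LATS2 and TEAD4 could not be ranked, since their order differed between libraries. TEAD4 stood above LATS2 in both libraries labelled knockdown, at 14.8 against 14.1 and 14.5 against 12.6 FPKM. YAP1 passed TEAD1 only in the library labelled knockdown 2, at 35.4 against 23.5 FPKM, where AMOTL2, YAP1 and TEAD1 led.

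Counting intervals off 1 were also common among other genes. The counting interval lay off 1 for 8 of the 10 genes in the library labelled knockdown 1, against 40.6% of the 10861 well-counted genes, those that averaged 100 counts or more. It lay off 1 for 8 of the 10 in the library labelled knockdown 2, against 56.2% of genes, and for 5 of the 10 between these libraries, against 37.5%. TEAD1, picked for its fall, is included in each of these counts. The 10 genes averaged 323 to 5972 counts, and deeper counts give narrower intervals, so no excess is read from these shares. In both comparisons with the control 4 of the 8 were above 1 and 4 below. Both use the same control library, so their likeness is no repeat. In edgeR's quasi-likelihood test over 19849 genes, 0.353% of genes passed a Benjamini-Hochberg adjusted p of 0.05. Of the 10 genes this count was 1, TEAD1, in the contrast that singled it out, and nothing is read from it. The other 9 had adjusted p of 0.472 to 0.845 in edgeR, and their lowest unadjusted p was 0.0698. In DESeq2's Wald test 0.0302% of genes and 0 of the 10 passed, and 0 passed in edgeR once the length and GC trends were removed.

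The kinase cassette upstream of YAP1 was described through 7 genes, STK3, STK4, SAV1, MOB1A, MOB1B, LATS1 and LATS2. All 7 had a negative log2 difference, with a median of −0.19 beside 0.00 over all genes tested, of which 49.8% were negative, and 0 of the 7 passed the adjusted test. With the length and GC trends removed the median was −0.10 beside 0.02, and the shared sign was lost, with 5 negative and 2, STK3 and STK4, positive. MOB1B, an adaptor that activates the LATS kinases, was the lowest of them, with 834, 616 and 580 counts. It was at 0.742 (0.667 to 0.824) and 0.650 (0.583 to 0.723) of the control. The log2 difference was −0.52 (SE 0.15, edgeR adjusted p = 0.0684; 0.0677 to 1.00 over the alternatives) and became −0.27 with the trends removed. Its paralog MOB1A, singled out after the values were seen, had 4020, 3713 and 2946 counts, or 0.928 (0.887 to 0.970) and 0.684 (0.652 to 0.718) of the control. Like TEAD1, MOB1A was lower in the library labelled knockdown 2 than in the library labelled knockdown 1, at 0.738 of it. Sequence shared by MOB1A and MOB1B was not measured.

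Genes further upstream and the opposing phosphatase complex gave no call. Of 25 upstream regulators, among them NF2, the WWC scaffolds, the TAOK and MAP4K kinases and the angiomotins, 12 were higher and 13 lower, with a median log2 difference of −0.05, and 0 passed. With the trends removed 17 were higher and 8 lower and the median turned to 0.03. The highest well-counted one was TAOK2, a kinase that activates the MST kinases, with 1221, 1445 and 1785 counts and a log2 difference of 0.35 (SE 0.13). The lowest was TNIK, a kinase of the MAP4K family, with 531, 419 and 346 counts and a log2 difference of −0.52 (SE 0.16). Of 16 genes of STRIPAK, the phosphatase complex that switches off the MST kinases, 3 were higher and 13 lower, the median was −0.15 and 0 passed. With the trends removed 4 were higher and 12 lower and that median was −0.05. The range ran from SIKE1, an adaptor of the complex with 883, 665 and 726 counts (−0.39, SE 0.14), to PPP2R1A, the phosphatase scaffold with 3189, 3421 and 4219 counts (0.21, SE 0.12).

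The genes that YAP1, WWTR1 and the TEAD proteins are known to switch on showed no common direction, in the libraries in which TEAD1 was lower. Of 22 such target genes 21 were tested, FOXF2 being at 0. Of these, 10 were higher and 11 lower, with a median log2 difference of −0.02, and 0 passed the adjusted test in edgeR or DESeq2. With the length and GC trends removed the split was again 10 and 11, with a median of −0.01. The list includes AMOTL2 and LATS2. At an unadjusted edgeR p under 0.05, 3 of the other 19 were higher and 0 lower, beside 6.82% and 4.91% of all genes tested. The 3 were ANKRD1, FJX1 and CCN1. Outside the 10 genes, the counts higher and lower were 0 and 2 of 5 in the kinase cassette and 1 and 5 of 24 upstream regulators. They were 0 and 3 of 16 in STRIPAK, and 2 and 0 of 9 among the AP-1 genes described below.

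ANKRD1, a cardiac stress-response gene widely used as a YAP1 readout, was the highest. It had 316, 406 and 493 counts, and was at 1.29 (1.11 to 1.50) and 1.46 (1.26 to 1.68) of the control, above it in both libraries. Its log2 difference was 0.46 (SE 0.17, edgeR adjusted p = 0.248; 0.202 to 1.00 over the alternatives). CCDC80, an extracellular matrix gene, was the lowest of the well-counted targets, with 471, 413 and 423 counts and a log2 difference of −0.22 (SE 0.17).

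The classic targets differed among themselves, and those named here were singled out after their values were seen. CCN1, listed as CYR61 and encoding a secreted matrix protein, had 4043, 4820 and 5307 counts. It was above the control in both libraries, at 1.20 (1.15 to 1.25) and 1.23 (1.18 to 1.28). CCN2, listed as CTGF and encoding a related matrix protein, had 474, 482 and 370 counts. It was level with the control in the library labelled knockdown 1, at 1.02 (0.898 to 1.16), and below it in the library labelled knockdown 2, at 0.729 (0.635 to 0.837). AXL, a receptor tyrosine kinase, had 16278, 17234 and 20015 counts, and MYOF, a membrane-repair protein, had 25661, 24122 and 26012. Their log2 differences were 0.15 (SE 0.10) and −0.08 (SE 0.10). The 7 tested targets with a motif match in a printed or searched window had a median log2 difference of 0.05, from −0.19 to 0.46, and the 8 with a window but no match had −0.10, from −0.22 to 0.34. CCN2 with 3 matches and ANKRD1 with 2 stood at opposite ends of the first range.

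**Figure D3:**
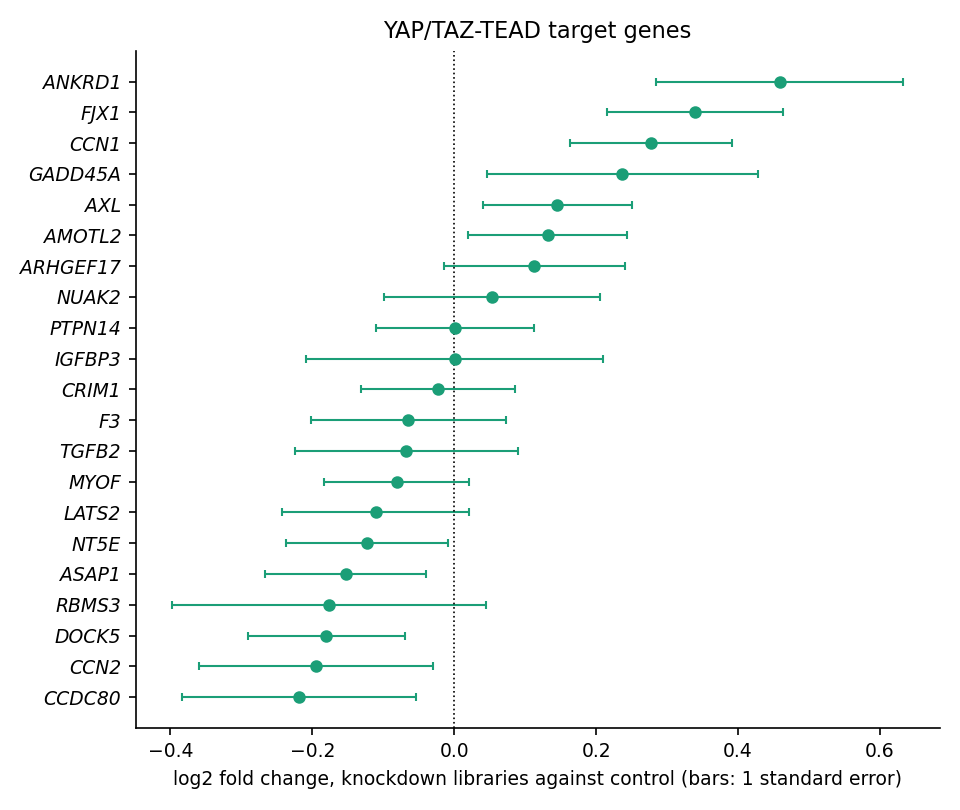
log2 fold change from the control to the mean of both libraries labelled PD-L1 knockdown (horizontal axis) for the 21 tested YAP/TAZ-TEAD target genes, sorted by value. Points are edgeR estimates and bars are 1 standard error; values run from −0.22 for CCDC80 to 0.46 for ANKRD1, with 10 above 0 and 11 below.

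AP-1 proteins bind beside the TEAD proteins at many enhancers. Of 10 AP-1 genes 9 were tested, BATF being at 0, and 7 were higher and 2 lower with a median log2 difference of 0.14. With the length and GC trends removed 5 were higher and 4 lower, with a median of 0.10. None passed the adjusted test. JUNB had 388, 544 and 684 counts, at 1.41 (1.23 to 1.61) and 1.65 (1.45 to 1.87) of the control, the opposite order to TEAD1. Its log2 difference of 0.61 (SE 0.16) had an edgeR adjusted p of 0.0509 (0.0508 to 1.00 over the alternatives), the lowest of the 72 pathway genes outside the 10, and became 0.34 with the length and GC trends removed. JUND, chosen for mention with its values in view, had 1022, 1244 and 1494 counts. FOSL1, the lowest of the well-counted AP-1 genes, had 2490, 2935 and 2571 counts and a log2 difference of 0.10 (SE 0.12). Over all 72 pathway genes outside the 10, edgeR and DESeq2 called 0. At an unadjusted edgeR p under 0.05, 6 (8.33%) were higher and 10 (13.9%) lower, beside 6.82% and 4.91% of all genes tested.

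The TEAD1 ratio in the library labelled knockdown 2 was among the lowest of all well-counted genes. TEAD1 was picked for its fall over these libraries, so its place among other genes follows from that choice and is only described. Of 10861 genes, TEAD1 and 3 others, GPR89B, EIF3C and PI4K2B, were at or below it. EIF3C had 1282, 358 and 413 counts and GPR89B had 396, 131 and 108. By RT-PCR the paper reported both as higher after PD-L1 knockdown, opposite to these counts, and the reason was not tested. In the library labelled knockdown 1, 1169 genes (10.8%) were as low as TEAD1 or lower. Between these libraries 10 genes were as low. TEAD1 ranked 323rd by mean count, and its counting intervals were narrow. It is a long transcript of moderate GC content (41.3%), with 12.1% of genes longer, and such transcripts as a class were lower too. The 54 genes in its length and GC class had median log2 ratios of −0.10 and −0.19 in the libraries labelled knockdown 1 and 2, and the lowest of them were −0.54 and −0.60. TEAD1 itself was at −0.22 and −1.09. With the length and GC trends removed its ratios were 0.943 and 0.543, so the value in the library labelled knockdown 1 moved close to the control and the other stayed far below it.

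Among the 5 genes whose pair of ratios lay nearest to that of TEAD1, within 0.14 on the log2 scale over the 2 comparisons, were ZMPSTE24, LINC01128, ADAM10 and NUDT21. ADAM10, a membrane protease that sheds cell-surface proteins, had 2992, 2753 and 1509 counts. NUDT21, a subunit of the pre-mRNA cleavage factor, had 3707, 3396 and 1986 counts. ZMPSTE24, the protease that matures lamin A, had 1148, 945 and 584 counts. The long noncoding RNA LINC01128 had 357, 307 and 187 counts. In each of these 4 the library labelled knockdown 2 was well below the other 2 libraries, which follows from choosing them by these ratios.

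**Figure D4:**
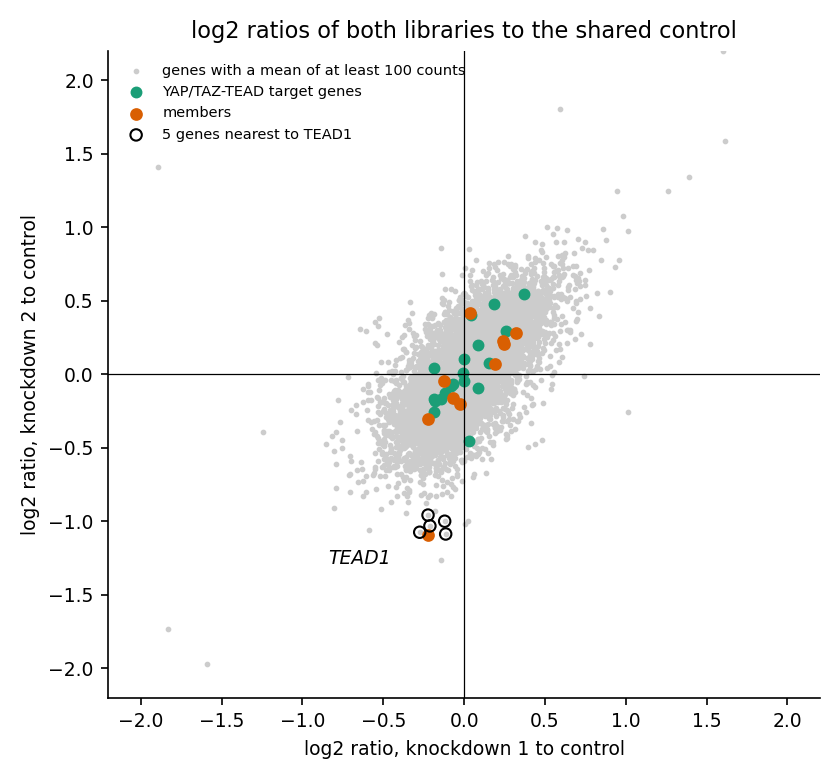
log2 ratio to the control of the libraries labelled PD-L1 knockdown 1 (horizontal axis) and 2 (vertical axis) for the 10861 well-counted genes (grey), of which 1 lies outside the axes. The 10 genes are orange, the target genes green and the 5 genes nearest to TEAD1 ringed; TEAD1 at −0.22 and −1.09 lies below the cloud, apart from the other 9.

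The genes around TEAD1 on chromosome 11 did not share its level. Within 3 megabases, 22 other genes averaged 100 counts or more. Their log2 ratios ran from −0.23 to 0.35 in the library labelled knockdown 1 and from −0.36 to 0.44 in the library labelled knockdown 2, with a median of −0.07 in the latter. None reached the −1.09 of TEAD1. The nearest on either side, PARVA, an adhesion protein gene, and ARNTL, a circadian clock gene, were named after their values were seen. PARVA had 502, 487 and 460 counts and ARNTL had 671, 622 and 716.

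**Figure D5:**
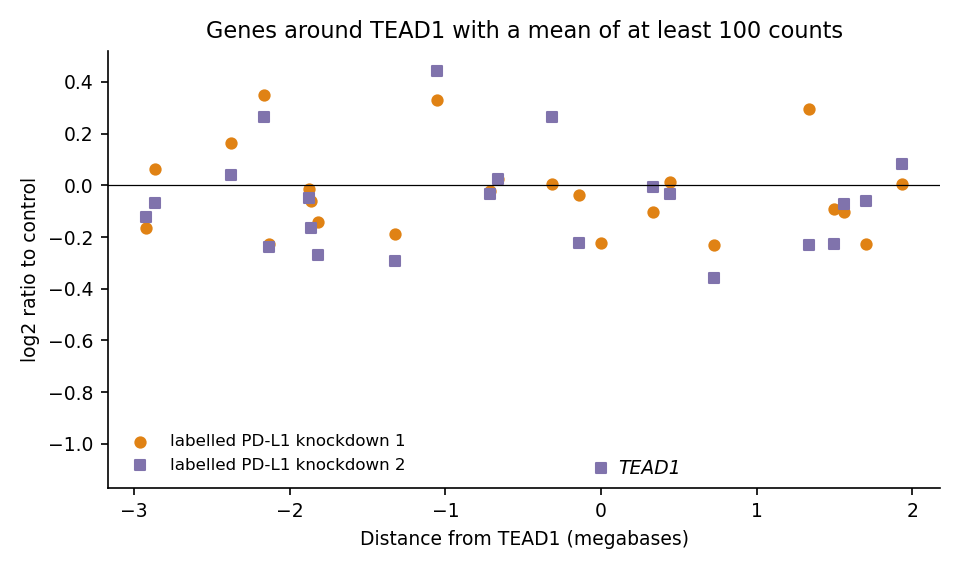
log2 ratio to the control (vertical axis) of TEAD1 and its 22 well-counted neighbours against their distance from TEAD1 in megabases (horizontal axis), for the libraries labelled PD-L1 knockdown 1 (orange circles) and 2 (purple squares). The neighbours lie between −0.36 and 0.44, and TEAD1 in the library labelled knockdown 2 lies alone at −1.09.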

How the data were processed

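RNA-seq of 3 DU145 libraries was analysed: 1 control and 2 labelled PD-L1 knockdown. The authors deposited raw read counts per gene, without normalization, and FPKM, which equal those counts over gene length and a constant of each library. The submitters' processing notes name Bowtie2 2.0.6, TopHat2 2.0.9, Cufflinks 2.1.1 and Cuffdiff 2.1.1, with no role. The counting tool, use of strand and build are not given in the sources used here. Gene identifiers and positions match GENCODE 29 on GRCh38.

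Genes whose 3 libraries together held 10 counts or more (19849) were tested with edgeR 4.0.16 (R 4.3.3; TMM, glmQLFit, glmQLFTest; 2 libraries against 1; Benjamini-Hochberg). The control has no replicate, so the fit has 1 residual degree of freedom. Its spread comes from the libraries labelled knockdown 1 and 2, which by the name sh1/2 may carry different shRNAs. The median prior degrees of freedom were infinite, so edgeR pooled this spread over genes. For the typical gene its own spread between these libraries then had no weight in the SE and p-value. For TEAD1 the SE was 0.11 in edgeR and 0.71 in DESeq2. The p-values measure only the spread between these samples, which may be technical. DESeq2 1.42.0 was an alternative. Ratios between single libraries carry exact 95% conditional binomial intervals and compare those libraries, not the conditions. A list is described by its counts and median, without a set test. Library totals were 14733088, 14738298 and 15786457; a count of 0 allows up to 3 counts, or 0.204, 0.204 and 0.190 CPM. Length and GC trends were removed as offsets over 20 classes of each. The fits were tried on simulated counts with the same dispersion for every gene and no length or GC trend, unlike these data. There edgeR recovered 97% of 2-fold changes and called 7 unchanged genes, while DESeq2 recovered 69% and called 0. The simulation cannot test the pooling of spread described above.

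The 10 genes and all lists were chosen with earlier results of these data known. The genes named are the 10, list genes at adjusted p under 0.05, the highest and lowest gene of each list among those averaging 100 counts or more, and the 5 genes nearest to TEAD1; others are marked where named, and some items are not reported here. TEAD motifs were searched in the RefSeq promoter table (GRCh38.p14), which was matched by symbol.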

Additional observations from a re-analysis of the deposited data

How the results depend on the processing

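Genes passing the adjusted test numbered 70, and 48 to 71 under DESeq2 size factors, library totals, a lower count minimum or a mean of at least 100 counts. They numbered 6 with DESeq2's Wald test and 13 (10 higher, 3 lower) with the length and GC trends removed. Among the 10 genes that count was 1 (TEAD1, whose contrast chose it), and 0 under the Wald test and under trend removal, where the TEAD1 log2 differences were −0.59 and −0.43. Of 30 ratios of the 10 genes between single libraries, 21 had intervals off 1, and 12 with the trends removed. With the trends removed WWTR1 turned to a log2 difference of 0.0874, and the ratios to the control of YAP1 (1.00) and WWTR1 (1.01) in the library labelled knockdown 1 and of AMOTL2 (0.946), TEAD2 (0.968) and WWTR1 (1.12) in the library labelled knockdown 2 changed side, as did LATS1 between these libraries (1.01); the cause was not tested. Pathway list calls outside the 10 numbered 0 under every alternative. TEAD1 was −1.09 without the library labelled knockdown 1 and −0.22 without the library labelled knockdown 2, values with no test. No paired analysis was possible because the single control library carries no replicate number. The spread between control cultures was not measured, and depth sets the counting intervals.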
